A study of Mus musculus with 16 samples.

Results

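The Polycomb repressive complexes PRC1 and PRC2 were followed through 9 of their subunit genes in week 5 mouse seminal vesicles (SVs), among 31274 genes measured by RNA-seq. The 9 genes were taken by name. *Eed*, *Suz12* and *Jarid2* belong to PRC2 and the others to PRC1 (*Ring1*, *Rnf2*, *Bmi1*, *Cbx2*, *Cbx7* and *Phc1*). Expression was deposited by the authors as FPKM (fragments mapped to a gene, scaled to its transcript length and to all fragments mapped) for 16 samples of male C57BL/6 mice, with 4 samples in each of 4 groups. WT-veh and WT-DES are wild-type mice injected on days 1 to 5 of life with corn oil or with diethylstilbestrol (DES), a synthetic oestrogen, at 2 µg per pup per day, and αERKO-veh and αERKO-DES are the same treatments in mice that lack oestrogen receptor α (ERα) in every tissue. All groups were collected at week 5, around puberty. The αERKO mice lacked ERα from conception, so loss of the receptor at injection and at week 5 cannot be told apart. WT pups came from pregnant females bought from a supplier, and αERKO mice from breeding heterozygous animals. Genotype and colony of origin therefore cannot be told apart in any comparison of αERKO with WT or in the interaction. The methods describe 4 samples per group for RNA-seq but 3 pools of mice for WT-DES where RNA extraction is described. A WT-DES sample may therefore hold more than 1 mouse, and the 4 WT-DES samples may not be 4 independent pools, in which case their SDs and p-values measure partly technical spread.

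PRC2 places methyl groups on lysine 27 of histone H3 (H3K27me3), through the catalytic subunits EZH1 or EZH2 held in a core with EED and SUZ12. EED binds the mark itself and stimulates the enzyme, and JARID2 is an accessory subunit that helps bring PRC2 to its targets. PRC1 ubiquitinates histone H2A through the RING1 or RNF2 (RING1B) ligase paired with a PCGF protein such as BMI1. In canonical PRC1 a CBX protein reads H3K27me3 and a PHC protein lets complexes join together. The complexes keep developmental genes silent, and *Cdkn2a* and *Cdkn2b*, the Ink4 cell cycle inhibitors, are among their best known targets.

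The windows of 250 bases before the start of 4 genes are shown, because these genes form 2 partner pairs in which 1 member fell after DES and the other did not pass the test. *Ring1* and *Rnf2* encode the alternative PRC1 ligases, and *Eed* and *Suz12* encode core PRC2 partners. They were taken from RefSeq on GRCm38.p6, where 8 of the 9 genes matched by symbol (not *Cbx2*), and *Jarid2* had 2 windows. Capitals mark CpG dinucleotides, the steps at which mammalian DNA is methylated. The *Ring1* window is chr17:34024681-34024930 (minus strand), *Rnf2* chr1:151500992-151501241 (minus strand), *Eed* chr7:89980977-89981226 (minus strand) and *Suz12* chr11:79992856-79993105 (plus strand).
Ring1: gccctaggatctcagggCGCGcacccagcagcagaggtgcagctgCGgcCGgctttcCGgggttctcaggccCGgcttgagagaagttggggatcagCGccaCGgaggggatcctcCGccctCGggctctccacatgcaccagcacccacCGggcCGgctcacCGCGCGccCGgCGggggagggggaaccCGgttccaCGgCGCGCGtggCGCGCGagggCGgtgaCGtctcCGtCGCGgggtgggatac
Rnf2: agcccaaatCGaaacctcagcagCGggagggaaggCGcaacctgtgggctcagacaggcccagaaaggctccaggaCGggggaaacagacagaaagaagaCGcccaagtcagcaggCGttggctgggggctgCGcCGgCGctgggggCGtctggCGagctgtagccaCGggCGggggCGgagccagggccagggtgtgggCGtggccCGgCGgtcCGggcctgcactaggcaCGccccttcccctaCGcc
Eed: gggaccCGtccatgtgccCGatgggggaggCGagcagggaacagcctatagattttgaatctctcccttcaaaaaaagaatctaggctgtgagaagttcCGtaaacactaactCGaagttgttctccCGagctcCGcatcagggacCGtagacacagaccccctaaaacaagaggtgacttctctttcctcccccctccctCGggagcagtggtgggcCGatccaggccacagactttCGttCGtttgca
Suz12: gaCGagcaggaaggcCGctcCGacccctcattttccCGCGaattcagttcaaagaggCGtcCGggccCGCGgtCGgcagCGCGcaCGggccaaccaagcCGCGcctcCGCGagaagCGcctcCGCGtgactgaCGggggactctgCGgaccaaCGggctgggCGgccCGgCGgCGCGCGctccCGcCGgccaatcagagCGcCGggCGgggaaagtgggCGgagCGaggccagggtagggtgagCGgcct

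The *Ring1* window held 30 CpG and the *Rnf2* window 20, and 5.94% and 17.9% of 32851 promoter windows in the same table held as many or more. The *Eed* window held 12 CpG and the *Suz12* window 37, against a median of 6 over all windows. The *Phc1* window, at 8 CpG, was the poorest in CpG of the 9 windows. The windows were searched on both strands for 5 motifs. The oestrogen response element, GGTCA then any 3 bases then TGACC, was in 0 of the 9 windows and in 0.177% of all windows. Its shorter form GGTCA, which the full element contains, was in the windows of *Bmi1* and *Cbx7*, and in 35.2% of all windows. The E2F site TTTCCCGC or TTTGGCGC was in that of *Suz12* (1.30% of all windows), the CCAAT box in those of *Suz12*, *Cbx7* and 1 of *Jarid2* (33.8%), and TATAAA in the other of *Jarid2* (12.4%). None of the 5 motifs was in the windows of *Ring1*, *Rnf2*, *Eed* or *Phc1*, which says only that these letters are not in these windows.

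The labels were checked with *Esr1*, the gene for ERα. Its FPKM was 4.43, 4.55, 3.70 and 2.81 in WT-veh, against 8.74, 19.6, 12.99 and 15.7 with DES. Its αERKO-veh values were 1.30, 1.59, 1.75 and 1.43, against 0.91, 1.15, 1.51 and 1.64 with DES. The lowest WT sample thus exceeded the highest αERKO sample. The files hold no fragment counts, so depth per sample is unknown, and the sum of FPKM ran from 590446 to 652708 in the WT-veh group, 375207 to 437619 for WT-DES, 479045 to 558591 for αERKO-veh and 531467 to 622477 for αERKO-DES. All 8 SV secretory markers were lower in WT-DES than in WT-veh at the thresholds given below, and their summed FPKM was 2436 to 7951 there, against 49597 to 57994 for WT-veh, 30143 to 47254 for αERKO-veh and 33532 to 63298 for αERKO-DES. Of 12 leukocyte markers 11 were higher in WT-DES and *Cd52* was lower. Their summed FPKM was 1177 to 1718 in WT-DES against 2942 to 3147 in WT-veh, and without *Cd52* it was 705 to 1436 for WT-DES, 105 to 179 for WT-veh, 73.1 to 111 for αERKO-veh and 62.3 to 91.7 for αERKO-DES. Markers of fibroblasts (6 of 6), endothelium (6 of 6), fat (4 of 6) and cell division (1 of 10) were also higher in WT-DES with none lower, those of the anterior prostate (5 of 5), smooth muscle (5 of 6) and skeletal muscle (2 of 8) lower with none higher, and of 7 epithelial markers 2 were higher and 3 lower. No listed marker was at 0 in all samples of a group. The marker levels of WT-DES therefore moved together with every WT-DES result below. Between the αERKO groups, the summed FPKM of the fat markers was 17.0 to 61.0 with DES against 88.2 to 1044 with vehicle, and that of the fibroblast markers 496 to 594 against 599 to 980, both without overlap. Without DES, the secretory sum given above was lower in αERKO-veh than in WT-veh without overlap, as was the leukocyte sum, at 1690 to 2692 against 2942 to 3147, but not that without *Cd52*. Fewer cells of a type and less RNA per cell cannot be told apart in these bulk samples, and the part of these marker differences in the Polycomb values was not tested.

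In WT-veh SVs *Ring1* was the highest of the 9 subunit genes, at 30.02 ± 0.90 FPKM (SD, n = 4), followed by *Cbx7* at 28.3 ± 3.1, *Eed* at 24.8 ± 2.5, *Rnf2* at 19.6 ± 1.8 and *Suz12* at 16.4 ± 1.3. *Jarid2*, at 9.23 ± 0.68, *Phc1*, at 9.15 ± 0.21, and *Bmi1*, at 8.53 ± 0.76, stood close together, and *Cbx2* was the lowest at 4.79 ± 0.096. FPKM is per length, so these levels can be set beside each other. The sample ranges of *Ring1*, *Cbx7* and *Eed* overlapped from each to the next, as did those of *Rnf2* and *Suz12* and those of *Jarid2*, *Phc1* and *Bmi1*, while *Eed* stood clear of *Rnf2*, *Suz12* of *Jarid2* and *Bmi1* of *Cbx2*. In WT-DES *Cbx7* led at 34.2 ± 3.2, clear of all others, and *Rnf2* (20.3 ± 2.2) and *Ring1* (20.3 ± 0.55) overlapped. *Cbx2* was the lowest gene in all 4 groups.

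**Figure D1:**
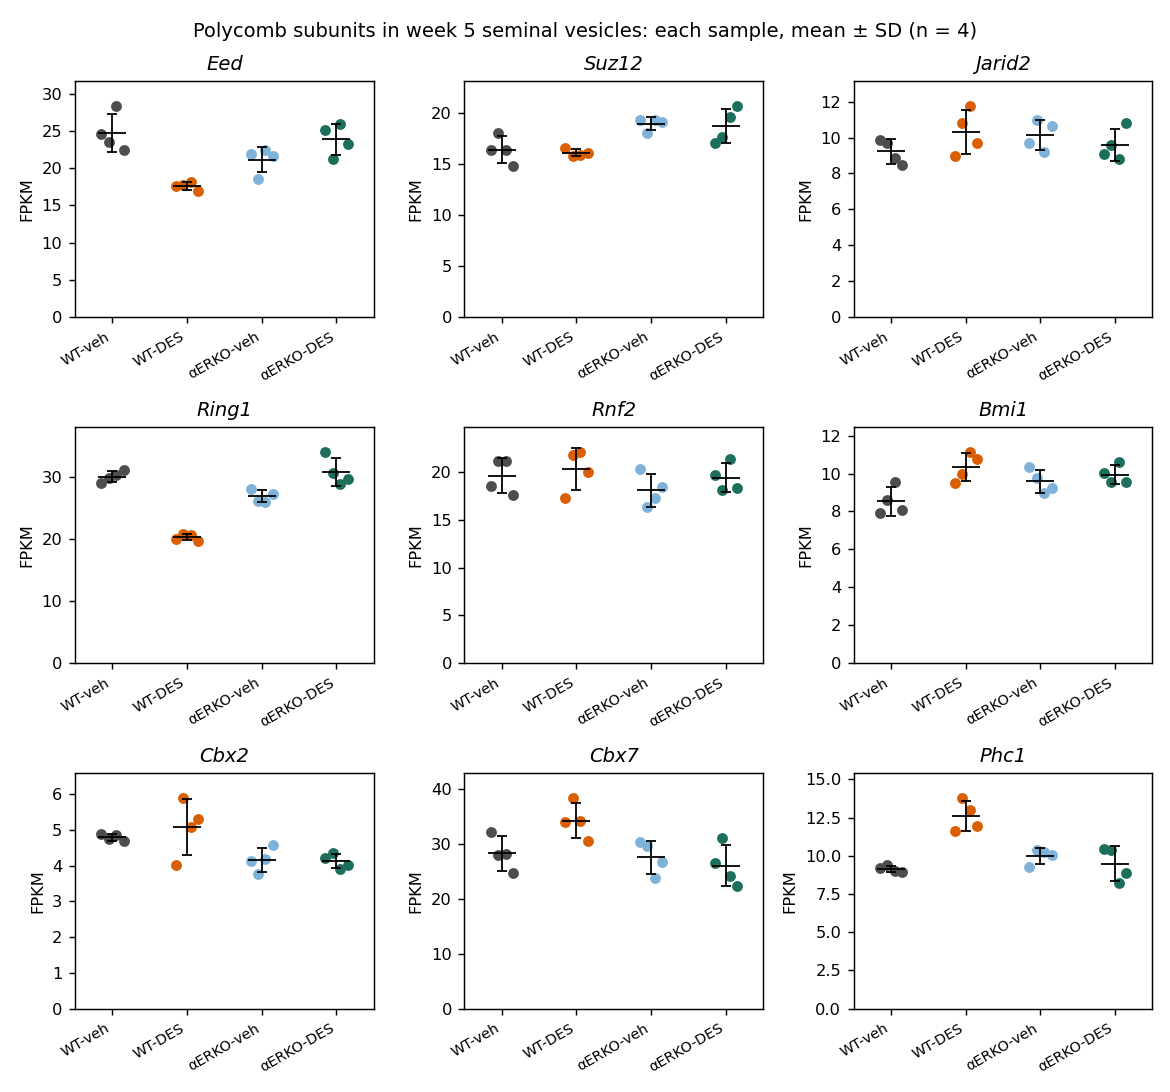
FPKM (y axis, from 0) of the 9 Polycomb subunit genes in each sample of the 4 groups (x axis), with the group mean as a bar and the SD as error bars (n = 4). All WT-DES samples lie below all WT-veh samples for *Ring1* (19.7 to 20.8 against 28.9 to 31.1) and *Eed* (16.9 to 18.2 against 22.5 to 28.3), and above them for *Phc1* (11.6 to 13.8 against 8.94 to 9.43).

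The effect of neonatal DES in the presence of ERα was taken from WT-DES against WT-veh. Log2 changes are differences in mean log2(FPKM + 1), tested with limma over 15988 genes with Benjamini-Hochberg adjustment. A gene was called when the adjusted p was at most 0.05 and the mean FPKM differed by at least 1.5-fold. Of the 9 subunit genes 0 were called, against 52.7% of all genes tested, and 5 had an unadjusted limma p under 0.05. The share of all genes at that unadjusted p is not given here, so such counts cannot be set against all genes. At an adjusted p of at most 0.05 with any fold, 5 of 9 passed against 73.8% of all genes. *Bmi1*, *Cbx7* and *Phc1* were higher (36.4% of all genes were) and *Eed* and *Ring1* lower (37.3%). The groups did not overlap for 3 of the 9 genes, against 66.7% of all genes tested. The median absolute log2 change was 0.25 over the 9 genes and 0.59 over all genes.

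*Ring1*, on chromosome 17 from 34020792 to 34024680 (minus strand, GRCm38), encodes a PRC1 ubiquitin ligase. WT-veh samples gave 28.9, 29.8, 30.3 and 31.1 FPKM and WT-DES samples 20.01, 20.8, 20.7 and 19.7. The αERKO-veh samples gave 28.0, 26.2, 26.0 and 27.3, and those of αERKO-DES 34.0, 30.7, 28.8 and 29.7. The WT-DES samples were the 4 lowest of the 16, and WT-veh and αERKO-DES overlapped. DES lowered *Ring1* 1.48-fold in WT mice, or −0.54 on the log2 scale (standard error 0.05, limma adjusted p = 4.97e-07), just under the 1.5-fold threshold.

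*Rnf2*, on chromosome 1 from 151458004 to 151500955 (minus strand), encodes the alternative ligase RING1B. Its FPKM was 18.5, 21.2, 21.2 and 17.6 in WT-veh, against 17.3, 21.8, 22.1 and 20.03 with DES. Its αERKO-veh values were 20.3, 16.3, 17.3 and 18.4, against 19.7, 18.1, 21.4 and 18.4 with DES. All 4 groups overlapped, and the log2 change of 0.05 with DES in WT did not pass (95% interval −0.15 to 0.24, limma adjusted p = 0.658). *Trmt1l*, on the opposite strand, shares 3.83% of the exonic bases of *Rnf2*. Since the sources used here do not give the strandedness of the libraries, reads from the pair cannot be told apart there.

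*Eed*, on chromosome 7 from 89954654 to 89980983 (minus strand), encodes the core PRC2 subunit that binds H3K27me3. WT-veh samples gave 24.7, 23.5, 28.3 and 22.5 FPKM and WT-DES samples 17.6, 17.8, 18.2 and 16.9. The αERKO-veh samples gave 21.9, 18.6, 22.47 and 21.7, and those of αERKO-DES 25.2, 21.2, 25.9 and 23.2. The WT-DES samples were again the 4 lowest, and *Eed* stood in WT-DES at 0.712 of its WT-veh mean, or −0.46 on the log2 scale (standard error 0.08, limma adjusted p = 0.000109). The opposite-strand transcript *E230029C05Rik* shares 6.82% of the exonic bases of *Eed*.

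*Suz12*, on chromosome 11 from 79993106 to 80034123 (plus strand), encodes the scaffold of the PRC2 core. Its FPKM was 16.4, 18.0, 16.4 and 14.8 in WT-veh, against 16.6, 15.8, 15.9 and 16.1 with DES. Its αERKO-veh values were 19.4, 18.0, 19.4 and 19.2, against 17.1, 17.6, 19.6 and 20.7 with DES. Every αERKO-DES sample was above every WT-DES sample, a lack of overlap that 66.5% of all genes shared. WT-veh met αERKO-veh at 18.0 and overlapped with the others. The log2 change with DES in WT was −0.02 (95% interval −0.17 to 0.12, limma adjusted p = 0.777). *Gm26563*, on the opposite strand, shares 178 of the 4945 exonic bases of *Suz12*.

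*Jarid2*, on chromosome 13 from 44729474 to 44921643 (plus strand), encodes the accessory PRC2 subunit. WT-veh samples gave 9.88, 9.72, 8.84 and 8.47 FPKM and WT-DES samples 8.99, 10.8, 11.7 and 9.72. The αERKO-veh samples gave 9.68, 11, 9.21 and 10.6, and those of αERKO-DES 9.07, 9.56, 8.82 and 10.8. All groups overlapped, and its log2 change with DES in WT was 0.14 (95% interval −0.05 to 0.33, limma adjusted p = 0.163).

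*Phc1*, on chromosome 6 from 122317731 to 122340561 (minus strand), encodes a polyhomeotic subunit of canonical PRC1. Its FPKM was 9.20, 9.43, 9.04 and 8.94 in WT-veh, against 11.6, 13.8, 13.02 and 12.0 with DES. Its αERKO-veh values were 9.24, 10.4, 10.2 and 10.0, against 10.5, 10.4, 8.21 and 8.86 with DES. The WT-DES samples were the 4 highest of the 16. DES raised *Phc1* 1.38-fold in WT mice, or 0.42 on the log2 scale (standard error 0.08, limma adjusted p = 0.000205), and of the 5 genes that passed it alone did so in all 11 other fits and without each of the 16 samples in turn.

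*Bmi1*, on chromosome 2 from 18677018 to 18686629 (plus strand), encodes PCGF4, the partner that activates the ligase. WT-veh samples gave 7.89, 8.61, 9.57 and 8.06 FPKM and WT-DES samples 9.52, 9.96, 11.1 and 10.8. The αERKO-veh samples gave 10.3, 9.79, 8.97 and 9.26, and those of αERKO-DES 10.0, 9.57, 10.6 and 9.55. The WT groups met at 9.57 and 9.52 and otherwise stood apart, and the log2 change of *Bmi1* with DES in WT was 0.25 (standard error 0.07, limma adjusted p = 0.00589), a ratio of 1.21.

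*Cbx7*, on chromosome 15 from 79915807 to 79971119 (minus strand), encodes a chromodomain reader of H3K27me3. Its FPKM was 32.2, 27.9, 28.2 and 24.6 in WT-veh, against 33.9, 38.4, 34.2 and 30.4 with DES. Its αERKO-veh values were 30.3, 29.6, 23.7 and 26.8, against 26.6, 31.0, 24.2 and 22.3 with DES. The highest WT-veh sample lay within the WT-DES range, and the log2 change of *Cbx7* was 0.27 (standard error 0.11, limma adjusted p = 0.0371). It no longer passed without any 1 of 6 samples, WT-veh samples 2, 3 or 4 or WT-DES samples 1, 2 or 3 (limma adjusted p = 0.0539 to 0.117). It passed in 8 of 11 other fits, and not with no FPKM minimum (limma adjusted p = 0.0712), with sample weights (limma adjusted p = 0.0543) or after correction for length. *Apobec3*, on the opposite strand, shares 1.54% of the exonic bases of *Cbx7*.

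*Cbx2*, on chromosome 11 from 119022962 to 119031270 (plus strand), encodes another CBX reader. WT-veh samples gave 4.88, 4.74, 4.86 and 4.68 FPKM and WT-DES samples 4.02, 5.89, 5.08 and 5.30. The αERKO-veh samples gave 4.14, 3.76, 4.18 and 4.58, and those of αERKO-DES 4.21, 4.36, 3.90 and 4.02. The 4 WT-veh samples lay within a narrow range that the WT-DES samples spanned, and the log2 change with DES in WT was 0.06 (95% interval −0.13 to 0.25, limma adjusted p = 0.559). Every WT-veh sample was above every sample of both αERKO groups, but the log2 change of −0.17 in αERKO-veh relative to WT-veh did not pass (95% interval −0.36 to 0.02, limma adjusted p = 0.184). Of all genes, 29.7% did not overlap between αERKO-veh and WT-veh and 21.0% between αERKO-DES and WT-veh.

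These directions depend on how the libraries are put on a common scale. When every library was set to the same total without the 20 highest genes, the median log2 change of all genes with DES in WT moved from −0.01 to 0.38. On that scale the changes of *Ring1* (−0.13, limma adjusted p = 0.0706) and *Eed* (−0.05, limma adjusted p = 0.571) no longer passed, and the other 7 genes all passed upwards, where 75.4% of all genes passed in either direction. Most calls over all genes were also upwards there, 6953 of 8784. Relative to the median of all genes, the changes of *Ring1* were −0.53 as deposited and −0.50 on that scale, those of *Eed* −0.45 and −0.43, and those of *Phc1* 0.43 and 0.44. Among the other scalings, *Bmi1* did not pass under quantile normalisation (0.07, limma adjusted p = 0.465), where *Cbx2* was lower (−0.35, limma adjusted p = 0.00312). A correction for transcript length left *Cbx7* at −0.04 (limma adjusted p = 0.752) and *Jarid2* and *Suz12* lower (−0.30, limma adjusted p = 0.00166, and −0.15, limma adjusted p = 0.0370). Across 14404 genes the log2 change in WT rose with the length of the longest transcript (Spearman's rho 0.27, across genes, which are not independent replicates). The longest transcripts of *Jarid2*, 8353 nt, and *Cbx7*, 6057 nt, are the longest of the 9, and that of *Eed*, 2067 nt, the shortest.

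**Figure D2:**
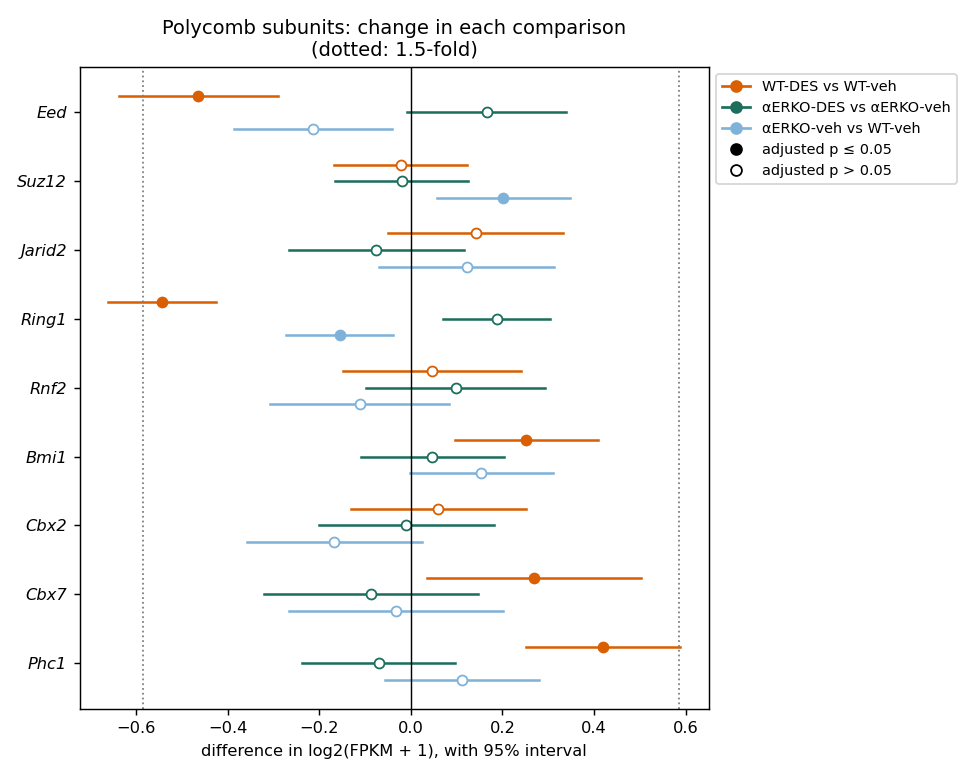
Difference in mean log2(FPKM + 1) (x axis) of the 9 Polycomb subunit genes (y axis) in 3 comparisons, with 95% intervals from limma, filled points for an adjusted p of at most 0.05 and dotted lines at 1.5-fold. With DES in WT, *Ring1* (−0.54) and *Eed* (−0.46) lie to the left and *Phc1* (0.42) to the right, while in αERKO no gene has a filled point.

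Loss of ERα without DES was taken from αERKO-veh against WT-veh, in which 0 of the 9 genes were called (7.12% of all genes were) and 3 had an unadjusted limma p under 0.05. At any fold 2 of 9 passed against 26.1% of all genes, *Suz12* higher (10.8% of all genes were higher) and *Ring1* lower (15.2%). *Suz12* was 1.16-fold higher (log2 change 0.20, standard error 0.07, limma adjusted p = 0.0413). *Ring1* stood at 0.895 of the WT-veh mean, with no overlap between the groups (log2 change −0.16, standard error 0.05, limma adjusted p = 0.0496). The secretory markers were also lower in αERKO-veh, as given above, and their part in these changes was not tested. Both genes lay near the threshold. Over the 16 fits that leave out 1 sample, *Suz12* passed in 6 and *Ring1* in 4 (limma adjusted p = 0.0229 to 0.130 and 0.0253 to 0.125), and *Ring1* stood at 0.02 when libraries were set to the same total without the 20 highest genes. Of 11 other fits *Suz12* passed in 6 and *Ring1* in 4. *Eed* was lower in every αERKO-veh sample than in every WT-veh sample, at 21.2 ± 1.7 against 24.8 ± 2.5 FPKM, with a log2 change of −0.21 that did not pass (95% interval −0.39 to −0.04, limma adjusted p = 0.0632). The groups did not overlap for 3 of the 9 genes, against 29.7% of all genes. In this comparison the log2 change across all genes was related to transcript length more closely than in the others (Spearman's rho 0.55), and after correction for length neither *Suz12* (0.14, limma adjusted p = 0.155) nor *Ring1* (−0.05, limma adjusted p = 0.517) passed.

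DES in the absence of ERα was taken from αERKO-DES against αERKO-veh. Of the 9 genes 0 were called (1.49% of all genes were), 0 passed at any fold (2.85% did), and 1, *Ring1*, had an unadjusted limma p under 0.05. The shares of all genes here turn on single samples. With all samples 239 genes were called, against 1 without αERKO-veh sample 4 and 653 without αERKO-veh sample 1. At any fold these counts were 455, 1 and 1430. *Ring1* was 1.15-fold higher in αERKO-DES with no overlap, a log2 change of 0.19 that did not pass the adjusted threshold (95% interval 0.07 to 0.30, limma adjusted p = 0.0687). It passed without αERKO-veh sample 1 (limma adjusted p = 0.0457). The fat and fibroblast markers also stood apart between these groups, as given above, and their part in this difference was not tested. *Eed* stood at 0.17 (95% interval −0.01 to 0.34, limma adjusted p = 0.215), opposite in sign to its change in WT. Across all genes the log2 change in this comparison fell with transcript length (Spearman's rho −0.32). The longest transcripts of *Ring1*, 2552 nt, and *Eed*, 2067 nt, are under the median of 3249.5 nt. Over 11 other fits *Ring1* ranged from 0.06 to 0.19 and *Eed* from 0.04 to 0.17. The other 7 genes lay between −0.09 and 0.10, and a missed threshold does not show that their levels were equal.

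The difference between the 2 effects of DES, that in WT minus that in αERKO, was tested as an interaction. It was called for 2 of 9 genes, *Ring1* and *Eed*, against 56.4% of all genes, and passed at any fold for 3 of 9 against 71.5%. *Ring1* (−0.73, standard error 0.08, limma adjusted p = 1.37e-06) and *Eed* (−0.63, standard error 0.11, limma adjusted p = 0.000191) were on the lower side with 36.2% of all genes. *Phc1* (0.49, standard error 0.11, limma adjusted p = 0.00114) was on the higher side with 35.3%. *Cbx7* (0.36, 95% interval 0.02 to 0.69, limma adjusted p = 0.0512) and *Bmi1* (0.20, 95% interval −0.02 to 0.42, limma adjusted p = 0.0876) did not pass. The interaction of *Cbx7* passed in 5 of 10 other fits and stood at −0.05 after correction for length (limma adjusted p = 0.777). For *Eed* the 1.5-fold threshold was missed without WT-veh sample 3 (−0.56) or αERKO-veh sample 2 (−0.57), with the adjusted p still under 0.05. *Eed* also missed it with median-ratio scaling and with sample weights. Neither *Ring1* nor *Eed* reached it under quantile normalisation or after correction for length, as given below. With libraries set to the same total without the 20 highest genes the interactions of *Ring1* (−0.19, limma adjusted p = 0.0605) and *Eed* (−0.09, limma adjusted p = 0.468) were lost, and the median over all genes was 0.51.

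Both genotypes after DES were set side by side in αERKO-DES against WT-DES, in which 1 of 9 genes was called, against 53.4% of all genes. It was *Ring1*, 1.52-fold higher in αERKO-DES (log2 change 0.58, standard error 0.05, limma adjusted p = 2.22e-07), and without αERKO-DES sample 1 the ratio was 1.46. At any fold 6 of 9 passed against 74.0%, with *Ring1*, *Eed* and *Suz12* higher (37.8% of all genes were) and *Cbx2*, *Cbx7* and *Phc1* lower (36.2%). *Suz12* and *Cbx2* passed here but not with DES in WT. The log2 change of *Suz12* was 0.20 (limma adjusted p = 0.0137, and 0.0504 without αERKO-DES sample 4). That of *Cbx2* was −0.24 (limma adjusted p = 0.0263) and did not pass without any 1 of 5 samples, WT-DES samples 2, 3 or 4 or αERKO-DES samples 3 or 4 (limma adjusted p = 0.0506 to 0.0972). This comparison also turned on the scale. With libraries set to the same total without the 20 highest genes, where the median over all genes was −0.34, *Ring1* stood at 0.21 (limma adjusted p = 0.00604, under 1.5-fold) and *Eed* at 0.05 (limma adjusted p = 0.581). On that scale 1 of 9 genes passed higher and 6 lower, where 74.7% of all genes passed in either direction, and the 3 called, *Cbx2* (−0.56), *Cbx7* (−0.76) and *Phc1* (−0.73), were lower in αERKO-DES. Most calls over all genes were also lower there, with 2031 of 8620 higher. In αERKO-DES against WT-veh, 0 of 9 were called (3.18% of all genes were), 0 passed at any fold (8.06% did) and 2 had an unadjusted limma p under 0.05, with log2 changes from −0.18 to 0.20. Several of these comparisons share a group, so each gives its own values and they do not support one another.

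Ratios between partner transcripts were formed within each sample, since a scale common to a library cancels in a ratio of FPKM. In the log2 ratios tested it does not cancel exactly, because of the added 1, which weighs most on low genes such as *Cbx2*. A trend with transcript length does not cancel in a ratio either, and no length-corrected ratio is given here. The groups were compared with a two-sided exact permutation test, whose 70 arrangements of 4 against 4 samples allow no p below 0.0286. The FPKM of *Rnf2* divided by that of *Ring1* was 0.641, 0.710, 0.699 and 0.566 for WT-veh and 0.867, 1.05, 1.07 and 1.02 for WT-DES, with no overlap. As log2((FPKM + 1)/(FPKM + 1)) the ratio rose from −0.59 ± 0.14 to −0.004 ± 0.13 (SD, n = 4; difference 0.59, exact permutation p = 0.0286), and the αERKO groups stood at −0.55 ± 0.08 (veh) and −0.64 ± 0.16 (DES). *Ring1* made up 60.5% ± 2.5 of the summed *Ring1* and *Rnf2* FPKM in WT-veh and 50.1% ± 2.4 in WT-DES, against 59.8% ± 1.5 and 61.3% ± 2.7 in the αERKO groups. The sum of the pair was 49.6 ± 1.9 FPKM in WT-veh and 40.6 ± 2.6 in WT-DES.

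The FPKM of *Eed* divided by that of *Suz12* was 1.5, 1.31, 1.73 and 1.52 in WT-veh and 1.06, 1.124, 1.14 and 1.05 in WT-DES. The log2 ratio was 0.56 ± 0.16 for WT-veh, 0.12 ± 0.06 for WT-DES, 0.15 ± 0.07 for αERKO-veh and 0.33 ± 0.16 for αERKO-DES (SD, n = 4). It was lower without overlap both in WT-DES (difference −0.44) and in αERKO-veh (difference −0.42) than in WT-veh (exact permutation p = 0.0286 for each). The longest transcript of *Suz12* is 4373 nt and that of *Eed* 2067 nt. Across genes the log2 change against WT-veh rose with length in WT-DES (Spearman's rho 0.27) and in αERKO-veh (0.55). *Ezh2* (longest transcript 2787 nt) against *Ezh1* (4207 nt), the alternative PRC2 methyltransferases, was lower in WT-DES than in WT-veh (difference −0.48, exact permutation p = 0.0286). *Cbx2* against *Cbx7* (difference −0.21, exact permutation p = 0.0857) and *Bmi1* against its paralogue *Pcgf2* (difference 0.21, exact permutation p = 0.143) overlapped between these groups. In αERKO-veh relative to WT-veh, *Bmi1* against *Pcgf2* was higher without overlap (difference 0.35, exact permutation p = 0.0286). The longest transcripts are 3594 nt for *Bmi1* and 2485 nt for *Pcgf2*, and 3201 nt for *Rnf2* and 2552 nt for *Ring1*. In WT-DES and in αERKO-veh against WT-veh, every ratio shift at an exact permutation p of 0.0286 was toward the longer transcript. The part of length in these shifts was not tested. Of the 25 tests of 5 ratios in 5 comparisons 7 were at the smallest p, and 0 had a Benjamini-Hochberg adjusted p of at most 0.05 (lowest 0.102), which 7 tests at that p cannot reach.

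**Figure D3:**
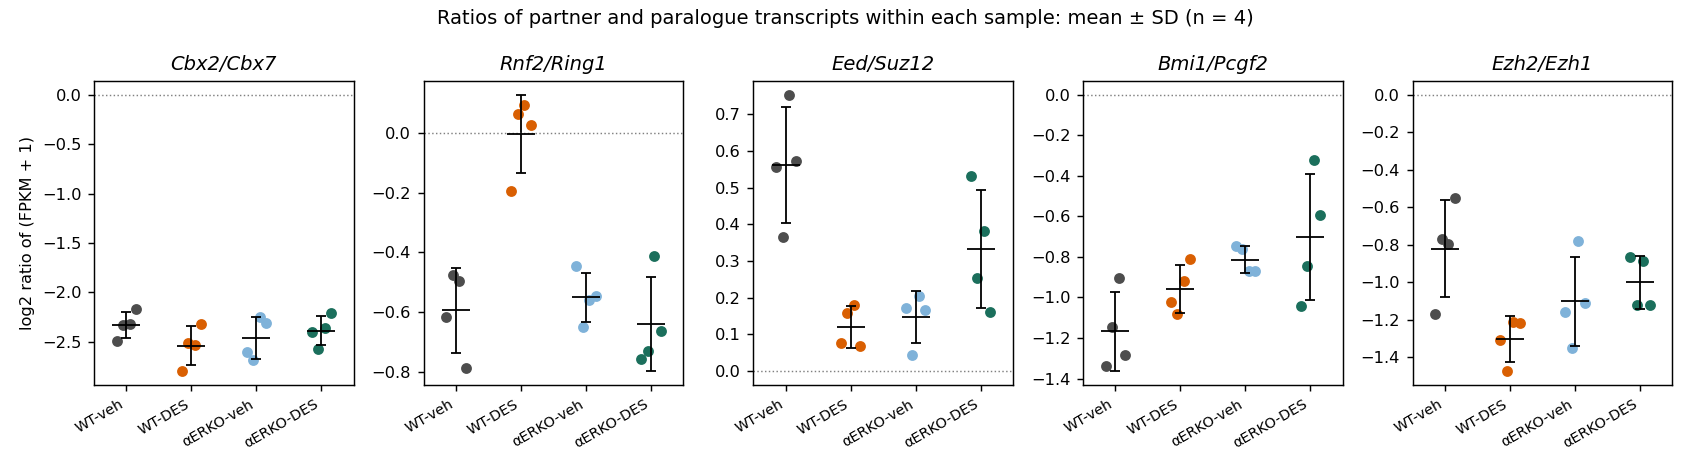
Log2 ratio of (FPKM + 1) of 5 pairs of Polycomb transcripts (y axis, 0 dotted) in each sample of the 4 groups (x axis), with mean and SD (n = 4). *Rnf2*/*Ring1* lies at −0.79 to −0.47 in WT-veh and −0.20 to 0.09 in WT-DES, and *Eed*/*Suz12* at 0.37 to 0.75 and 0.07 to 0.18.

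Within the polyhomeotic (PHC) family *Phc1* held 11.05% ± 0.76 (SD, n = 4) of the summed FPKM in WT-veh and 15.1% ± 1.0 in WT-DES, with *Phc2* at 78.7% ± 2.6 and 69.5% ± 1.5. In αERKO-veh and αERKO-DES *Phc1* held 13.6% ± 0.53 and 12.9% ± 0.93, and *Phc2* 66.3% ± 4.0 and 71.5% ± 4.7. *Bmi1* held 12.8% ± 1.2 of the PCGF sum in WT-veh and 13.8% ± 1.5 in WT-DES, against 14.6% ± 0.91 in αERKO-veh and 15.3% ± 1.2 in αERKO-DES. *Pcgf2* was the largest part of that sum. These shares were not tested.

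The other Polycomb genes were 44 further subunits, cofactors and opposing enzymes, of which 41 reached the FPKM minimum of 1. With DES in WT 14 of 41 were called against 52.7% of all genes, 11 higher against 28.9% and 3 lower against 23.9%, with a median log2 change of 0.04. By list, the calls were 2 higher and 2 lower among 8 other PRC2 genes, 1 and 1 among 9 other canonical PRC1 genes, and 3 and 0 among 16 variant PRC1 genes. Of 5 tested genes of the H2A deubiquitinase 3 were higher, of the 2 H3K27 demethylases 1, and of the Ink4 locus the 1 tested. These directions are on the deposited scale. With equal totals without the 20 highest genes, 6953 of the 8784 calls over all genes were higher. The split of the 41 on that scale is not given here.

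Among the PRC2 genes *Phf19*, a Polycomb-like accessory subunit that binds H3K36 methylation, had the largest fall, from 16.3 ± 1.3 FPKM in WT-veh to 3.39 ± 0.94 in WT-DES (SD, n = 4; log2 change −1.999, limma adjusted p = 1.11e-08). The αERKO groups stood at 19.8 ± 3.1 (veh) and 20.6 ± 1.9 (DES). *Rbbp7*, a histone chaperone shared with other complexes, fell from 172 ± 3.6 to 104 ± 2.9 (log2 change −0.72, limma adjusted p = 4.13e-07), but stood at −0.05 under quantile normalisation (limma adjusted p = 0.546). *Aebp2*, a cofactor of the JARID2-containing complex, rose from 19.3 ± 4.4 to 33.4 ± 2.5 (log2 change 0.78, limma adjusted p = 0.000197), and by 0.48 on the log2 scale after correction for length (limma adjusted p = 0.00119).

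*Ezh1* rose from 18.0 ± 2.1 to 28.7 ± 2.7 FPKM (log2 change 0.64, limma adjusted p = 1.85e-05). *Ezh2*, at 9.75 ± 0.81 in WT-veh and 11.003 ± 0.69 in WT-DES, did not pass (log2 change 0.16, 95% interval −0.02 to 0.34, limma adjusted p = 0.0970). It passed in 4 of 11 other fits, at 0.20 with median-ratio scaling, 0.23 with sample weights, 0.24 after correction for length and 0.56 with equal totals without the 20 highest genes (limma adjusted p = 0.0400, 0.00927, 0.0132 and 4.77e-05). *Ezh2* made up 35.2% ± 4.3 of the summed *Ezh1* and *Ezh2* FPKM in WT-veh and 27.8% ± 1.8 in WT-DES, against 30.8% ± 3.8 in αERKO-veh and 32.3% ± 2.3 in αERKO-DES.

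Of the canonical PRC1 genes, *Cbx8*, which encodes a reader of H3K27me3, fell from 15.7 ± 0.52 to 9.31 ± 0.47 FPKM (log2 change −0.69, limma adjusted p = 1.91e-07). On the scale without the 20 highest genes it still passed but at less than 1.5-fold (−0.29). *Phc3* rose from 8.48 ± 1.2 to 12.9 ± 0.54 (log2 change 0.56, limma adjusted p = 0.00155). Its ratio of 1.52 fell under 1.5 without any 1 of 4 samples (1.44 to 1.499), and its change was 0.03 after correction for transcript length (limma adjusted p = 0.736). *Pcgf2* did not pass (log2 change 0.04, 95% interval −0.18 to 0.27, limma adjusted p = 0.719).

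Of the variant PRC1 genes, *Mga*, which encodes the DNA-binding scaffold of the PCGF6 complex, rose from 8.83 ± 1.4 to 15.9 ± 1.8 FPKM (log2 change 0.78, limma adjusted p = 2.50e-05), a change of 0.19 after correction for length (limma adjusted p = 0.0528). *Auts2*, which encodes a part of the PCGF5 complex, rose from 1.92 ± 0.22 to 7.54 ± 5.4 (log2 change 1.38, limma adjusted p = 0.000272), with 1 WT-DES sample at 15.7 and the others at 4.48 to 5.41. The third gene called was *Pcgf5* itself (log2 change 0.57, limma adjusted p = 0.00176), with 1 WT-DES sample at 13.96 and the others at 7.28 to 8.12. Without the highest its ratio fell from 1.62 to 1.35, and it did not pass under quantile normalisation (limma adjusted p = 0.0926) or after correction for length (limma adjusted p = 0.176). The deubiquitinase PR-DUB removes the PRC1 mark, and its cofactor genes *Asxl1* (log2 change 0.56, limma adjusted p = 0.000114), *Asxl2* (0.78, limma adjusted p = 0.000174) and *Mbd5* (1.00, limma adjusted p = 5.42e-07) were higher. The ratio for *Asxl1*, 1.52, was under 1.5 without any 1 of 3 samples (1.44 to 1.49). After correction for length the changes of *Asxl1* (0.19, limma adjusted p = 0.0157) and *Asxl2* (0.23, limma adjusted p = 0.0237) were under 1.5-fold, as was that of *Mbd5* (0.54, limma adjusted p = 4.78e-06). The other 2 tested genes of this list, given after their values were seen, were *Mbd6*, lower at less than 1.5-fold (−0.26, limma adjusted p = 0.0371), and *Bap1*, which did not pass (−0.07, limma adjusted p = 0.232).

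The H3K27 demethylase gene *Kdm6a* rose from 10.4 ± 1.8 to 17.8 ± 1.2 FPKM (log2 change 0.73, limma adjusted p = 0.000317), and by 0.43 after correction for length (limma adjusted p = 0.00253). *Kdm6b*, which encodes the related enzyme JMJD3, was 21.2 ± 2.7 in WT-veh and 18.0 ± 0.74 in WT-DES (log2 change −0.21, limma adjusted p = 0.0228), a difference that turned to 0.20 on the scale without the 20 highest genes. *Cdkn2b*, which encodes p15, rose from 2.29 ± 0.36 to 9.42 ± 4.4 (log2 change 1.57, limma adjusted p = 1.82e-05), with all WT-DES samples above all WT-veh samples. *Cdkn2a*, which encodes p16 and p19 at the same locus, was under the FPKM minimum, at 0.29 to 0.68 in WT-veh and 0.35 to 1.35 in WT-DES, and was not tested.

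Without ERα, DES gave 0 called of the same 41 genes (αERKO-DES against αERKO-veh), where 1.49% of all genes were called, and 6 of the 41 had an unadjusted limma p under 0.05. At any fold 1 of the 41 passed, against 2.85% of all genes. It was *Cbx8* (log2 change 0.29, limma adjusted p = 0.0351), which passed in 9 of the 16 fits that leave out 1 sample (limma adjusted p = 0.00893 to 0.142) and in 7 of 11 other fits. The lower fat and fibroblast markers of αERKO-DES moved with it, and their part was not tested. In αERKO-veh against WT-veh 3 of the 41 were called, all higher, where 7.12% of all genes were called. They were *Phc3* (log2 change 0.73, limma adjusted p = 0.00545), *Asxl2* (0.64, limma adjusted p = 0.00943) and *Kdm6a* (0.56, limma adjusted p = 0.0149). The lower secretory markers of αERKO-veh moved with these, and their part was not tested. *Asxl2* was lost after correction for length (limma adjusted p = 0.0638). The call of *Kdm6a* was lost without WT-veh sample 3 or 4 or αERKO-veh sample 2 (ratios 1.43 to 1.47). The longest transcripts of *Phc3*, *Asxl2* and *Kdm6a* are 10976, 11934 and 5935 nt, against a median of 3249.5 nt over the genes with a length.

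**Figure D4:**
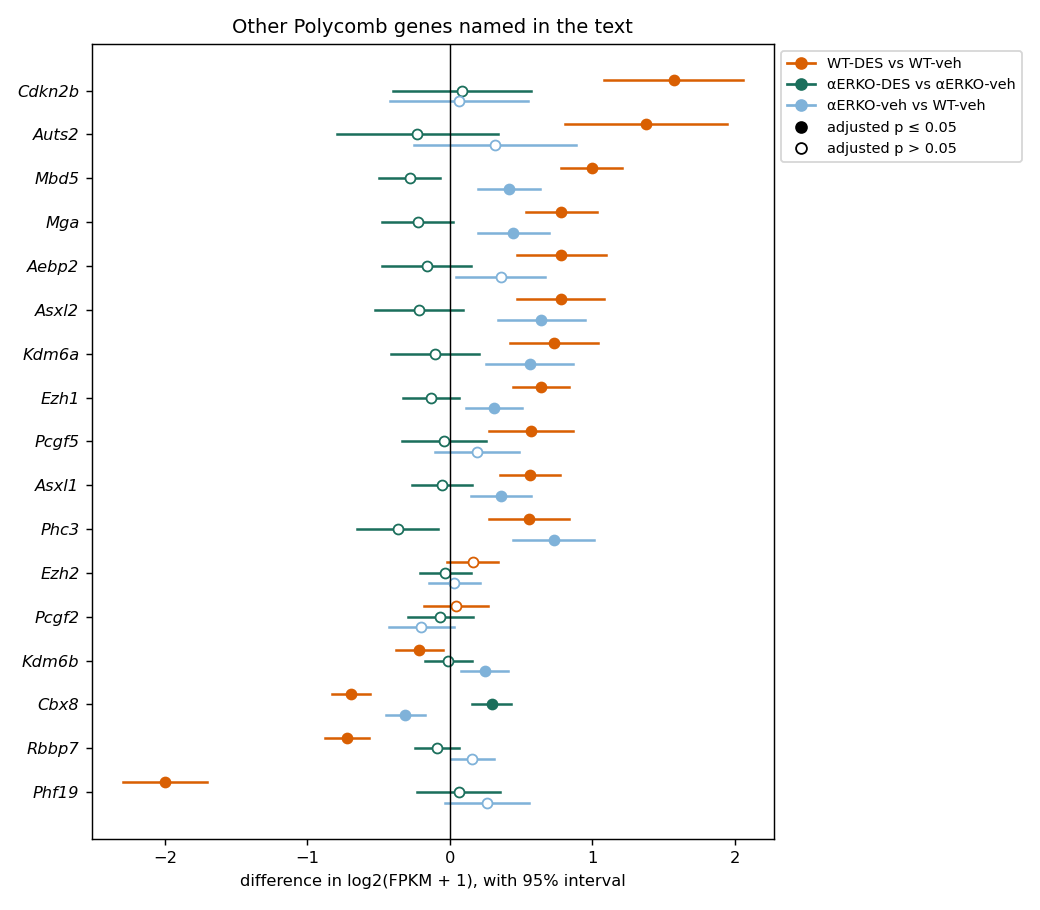
Difference in mean log2(FPKM + 1) (x axis) of 17 other Polycomb genes (y axis, ordered by the change with DES in WT) in 3 comparisons, with 95% intervals from limma and filled points for an adjusted p of at most 0.05. In WT, the values with DES run from −1.999 for *Phf19* to 1.57 for *Cdkn2b*, and in αERKO the 1 filled point is *Cbx8* (0.29).

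For each subunit gene the 2 tested genes with the most similar pattern over the 16 samples were found by Pearson's r of log2(FPKM + 1), given as a description. *Prss8* (r = 0.98) and *Usp43* (0.98) were most like *Ring1*, *Gtf2h3* (0.96) and *Dnajc2* (0.96) most like *Eed*, and *Ifngr1* (0.96) and *Pak1* (0.95) most like *Phc1*. *Smc6* (0.95) and *Pcmtd1* (0.94) were most like *Suz12*. The values were lower for *Cbx7* (*Fchsd1*, 0.90, and *Neil1*, 0.88), *Cbx2* (*Pgpep1*, 0.90, and *Cdca7l*, 0.90), *Jarid2* (*A330040F15Rik*, 0.89, and *Mtmr12*, 0.87), *Rnf2* (*Zfp456*, 0.85, and *Rsl1*, 0.84) and *Bmi1* (*Smarca1*, 0.85, and *Rc3h2*, 0.81). The samples share their groups and their libraries. Between the subunit genes, *Ring1* and *Eed* gave 0.85 over the 16 samples and 0.12 once the group means were removed, while *Bmi1* and *Rnf2* gave 0.47 and 0.72, and *Eed* and *Rnf2* 0.14 and 0.60.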

How the data were processed

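RNA of week 5 SVs was sequenced as paired-end reads on an Illumina HiSeq. The authors aligned the reads to mm10 with TopHat2 2.0.4 and deposited FPKM from Cufflinks 2.0.2, rounded to 2 decimals. The gene annotation, strandedness and any further scaling between libraries are not given in the sources used here. FPKM hold no counts, so depth and counting error are unknown.

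A gene was tested when its mean FPKM was above 1 in at least 1 group. Log2(FPKM + 1) was fitted in 1 model over the 16 samples with limma 3.58.1 (R 4.3.3, empirical Bayes with trend), and fold changes on this scale understate those of low genes. P-values were adjusted over all genes tested. The script was tested on simulated data with 200 changed genes. The fits were repeated with another pseudocount (0.1), FPKM minimum (none or 5), scaling (median-ratio, quantile, equal totals without the 20 highest genes, correction for transcript length), set of samples (only the groups compared), variance model, sample weights and replicate block, and without each sample. P-values measure the spread between the samples deposited.

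The 9 genes and all lists were chosen with earlier results of these data known. Other Polycomb genes named are the methyltransferases, demethylases, Ink4 genes and *Pcgf2*, the 6 highest and 6 lowest changes called in WT-DES against WT-veh, and those called in αERKO-veh against WT-veh or αERKO-DES against αERKO-veh. As 3 were called lower, *Phc3*, *Asxl1* and *Pcgf5* entered among the lowest 6 although they rose. Some results are not reported here. The leukocyte sum without *Cd52* was added after its values were seen. Gene positions and lengths are from GENCODE M21 on GRCm38.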

Additional observations from a re-analysis of the deposited data

Results flagged for a closer look

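In 6 of 108 groups of 4 samples tested with Dixon's ratio at its 95% critical value, 1 sample stood apart, and chance flags about 1 in 20 groups. *Suz12* was 18.0 FPKM in 1 αERKO-veh sample, below 19.2 to 19.4 in the others. *Pcgf5* was 5.47 in 1 WT-veh sample, below 5.86 to 5.88. In WT-DES, *Rbbp7* was 108 in 1 sample (102 to 103 in the others), *Mga* 13.1 (16.7 to 16.9), *Pcgf5* 13.96 (7.28 to 8.12) and *Auts2* 15.7 (4.48 to 5.41).

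The change with DES differed between WT and αERKO by the limma interaction, with the αERKO change taken from that of WT on the log2 scale, a difference that 71.5% of all genes passed at any fold. Among the subunit genes it was −0.73 for *Ring1*, −0.63 for *Eed* and 0.49 for *Phc1*. Among the other PRC2 genes it was −2.06 for *Phf19*, −0.63 for *Rbbp7*, 0.77 for *Ezh1* and 0.94 for *Aebp2*. Among the other PRC1 genes it was −0.99 for *Cbx8*, 0.92 for *Phc3*, 0.61 for *Pcgf5*, 1.01 for *Mga* and 1.60 for *Auts2*. For the deubiquitinase genes it was 0.62 for *Asxl1*, 1.00 for *Asxl2* and 1.28 for *Mbd5*, and it was 0.84 for *Kdm6a* and 1.49 for *Cdkn2b*.

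Some of these differences did not pass under other scalings. After correction for length these were *Asxl1* (0.12, limma adjusted p = 0.241), *Asxl2* (0.25, limma adjusted p = 0.0722), *Mga* (0.20, limma adjusted p = 0.142), *Phc3* (0.21, limma adjusted p = 0.0709) and *Pcgf5* (0.16, limma adjusted p = 0.507), while *Aebp2* (0.55, limma adjusted p = 0.00593) and *Kdm6a* (0.44, limma adjusted p = 0.0197) passed at less than 1.5-fold. Under quantile normalisation they were *Pcgf5* (0.26, limma adjusted p = 0.325), *Auts2* (1.01, limma adjusted p = 0.0538) and *Rbbp7* (0.22, limma adjusted p = 0.0943). With equal totals without the 20 highest genes they were *Ring1* (−0.19, limma adjusted p = 0.0605), *Eed* (−0.09, limma adjusted p = 0.468) and *Rbbp7* (−0.07, limma adjusted p = 0.519).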

How the results depend on the processing

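In αERKO-veh against WT-veh, 2 subunit genes passed at any fold. The count was 1 with a pseudocount of 0.1, with no FPKM minimum, with median-ratio scaling, with quantile normalisation, with only the groups compared in the fit and with the replicate block, 0 with the correction for transcript length, without the variance trend and at an adjusted p of 0.01, and 4 with sample weights, where 55.5% of all genes passed against 26.1%. Without each sample in turn it was 0 to 2. In αERKO-DES against αERKO-veh the any-fold count of 0 became 1 with sample weights (41.8% of all genes against 2.85%) and 0 to 1 without each sample, and in αERKO-DES against WT-veh 0 to 1 without each sample. The 1 called in αERKO-DES against WT-DES became 0 with median-ratio scaling and with the fold taken from the log2 difference, and 0 to 1 without each sample. The 2 called interactions, *Ring1* and *Eed*, became 1 with median-ratio scaling and with sample weights, where *Eed* fell under 1.5-fold, and 1 to 2 without each sample. With quantile normalisation *Ring1* (−0.50) and *Eed* (−0.49) both fell under 1.5-fold and the 1 called was *Cbx7* (0.69), and with the length correction 0 were called (*Ring1* −0.57, *Eed* −0.36). The 3 any-fold interactions became 5 with median-ratio scaling and with quantile normalisation.

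With libraries set to equal totals without the 20 highest genes, 4 subunit genes were called in WT-DES against WT-veh (54.2% of all genes), 3 in αERKO-DES against WT-DES (53.2%) and 4 interactions (57.1%), and 7 interactions passed at any fold (72.7%). The 4 interactions were *Bmi1* (0.72), *Cbx7* (0.90), *Jarid2* (0.73) and *Phc1* (1.01), while *Ring1* and *Eed* did not pass. *Suz12* turned to 0.39 in WT-DES against WT-veh, −0.16 in αERKO-DES against WT-DES and 0.53 in the interaction, the interaction of *Rnf2* to 0.49, *Ring1* in αERKO-veh against WT-veh to 0.020, and *Kdm6b* to 0.20 with DES in WT and 0.34 in the interaction. With the length correction, *Jarid2* turned to −0.30, 0.19 and −0.37 in WT-DES against WT-veh, αERKO-DES against WT-DES and the interaction, and *Cbx7* to −0.042 in the first and −0.053 in the interaction. Under quantile normalisation, *Cbx2* turned to −0.35, 0.25 and −0.49 in the same 3, and the interaction of *Rbbp7* to 0.22. The cause was not tested. For both of these settings the fold in the 5 comparisons came from the deposited FPKM, so a call there could change only through the adjusted p.

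Replicate numbers were checked as pairs. Same-numbered samples correlated at −0.21 to 0.28 in their deviations from the group means, and no pair of groups passed 0.1 for every number. Correlations this low cannot decide whether same-numbered samples shared a litter or batch, and the main fits used no pairing. With the replicate block 5, 1, 0, 6, 0 and 4 subunit genes passed at any fold in the 5 comparisons and the interaction, against 5, 2, 0, 6, 0 and 3, and paired ratio tests cannot go below an exact p of 0.125. Fits that leave 3 samples in a group assume that its spread is like the others'. The interaction could not be fitted on only 2 groups.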

Other observations

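*Cdkn2a*, *Asxl3* and *Sfmbt2* stayed under the FPKM minimum in every group. *Sfmbt2*, an MBT domain gene, had a mean of 0.255 FPKM for WT-veh, 0.705 for WT-DES, 0.375 for αERKO-veh and 0.345 for αERKO-DES, and was not tested.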
